A study of Mus musculus with 165 samples.

Results

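The growth hormone and insulin-like growth factor (IGF) axis was followed through 10 genes in the livers and brains of ageing mice. They were the receptor gene Ghr, the transducer gene Stat5b, the secreted products Igf1 and Igfals, the feedback inhibitors Socs2 and Cish, the repressor gene Bcl6 and the binding protein genes Igfbp1, Igfbp2 and Igfbp3. They were chosen by symbol, as the rows of both count tables whose Ensembl identifier maps to these symbols, which gave 10 of the 55471 rows. All 10 passed the filter on low counts in the liver, among 15579 genes kept, and 8 of 10 passed it in the brain, among 18711, with Igfals and Igfbp1 left out there. The mice were males of the inbred C57BL/6J/Ukj strain, kept for ageing with no treatment or genetic change named in the labels, and were 3, 9, 15, 24 or 28 months old. In order of age there were 16, 16, 16, 17 and 18 liver libraries and 15, 16, 16, 17 and 18 brain libraries, and 82 mice gave both tissues. Polyadenylated RNA had been sequenced from whole tissue in 3 library preparations, named as batches in the labels and called prep 1 to prep 3 here, each with libraries of every age. Levels are given as CPM, the count of a gene scaled to the total of its library after TMM adjustment, so that libraries of different depth can be compared. Changes are log2 fold changes with their standard error (SE) from edgeR's quasi-likelihood test, and a gene was called at a Benjamini-Hochberg adjusted p under 0.05 over all genes kept.

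Growth hormone is released by the pituitary in pulses and acts on hepatocytes through the receptor GHR, whose partner kinase JAK2 phosphorylates STAT5B, which then enters the nucleus and switches on target genes. Among these targets are Igf1, which supplies most of the circulating IGF-I, Igfals, whose product holds IGF-I and IGFBP-3 in a large circulating complex, and Socs2 and Cish, whose products damp the receptor's signal. Bcl6 is repressed by STAT5 and its product occupies many of the same sites as a repressor, so it is known as a counterpart of STAT5 in male liver. The binding proteins carry IGFs in blood and set how much reaches cells, and Igfbp1 is known for its sharp response to fasting and insulin.

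Liver libraries held 5.82 to 57.5 M counts with a median of 32.9 M, and brain libraries held 11.5 to 73.4 M with a median of 37.6 M. In the liver, the libraries of 24 months replicate 13 and 28 months replicate 14 deviated most from the means of their age and prep, and the latter had the lowest summed level of the 6 hepatocyte markers, at 20314 CPM against a next lowest of 53702 CPM. In the brain, 28 months replicate 15 stood apart, with the smallest library, the lowest neuronal and astrocyte marker sums and the highest oligodendrocyte marker sum, followed by 24 months replicate 13. Counts of members called at 24 and at 28 against 3 months are given with and without these libraries. In bulk tissue, fewer cells of a type and less RNA per cell cannot be told apart. Nothing in the labels named the hour of collection or the feeding state, and the labels named separate mice, so the replicate spread is that between animals.

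In the liver at 28 months, Ghr, Igfals and Bcl6 were lower and Igfbp3 was higher than at 3 months, while Igf1 itself did not pass the test. These were 4 of the 10 genes called, against 61.9% of all genes in that comparison. The 1 called higher stood against 31.9% of all genes and the 3 called lower against 30.0%. The median log2 fold change was -0.01 over the 10 genes and 0.01 over all genes tested. At 24 months the same 4 genes were called in the same directions by edgeR, against 49.0% of all genes, and voom called 3 of them, with Igfals lost, as it was with only these 2 ages fitted. None of the 10 was called at 9 months (4.69% of all genes) or 15 months (7.32%) against 3 months, or at 15 against 9 months (0.0514%). At an unadjusted p under 0.05, edgeR gave 1, 1 and 0 of the 10 genes in these 3 comparisons, DESeq2 called 0, 1 and 0, and voom called 0 in each. Over all 15579 genes these numbers were 3100, 3274 and 670 at an unadjusted p, 903, 1176 and 10 by DESeq2 and 398, 1119 and 8 by voom. Between neighbouring ages, Ghr was called from 15 to 24 months (36.0% of all genes) and from 24 to 28 months (15.3%), the 1 member called in each. Over all ages together, 5 of 10 were called against 71.5% of all genes, with Stat5b added at an adjusted p of 0.024 by edgeR. Without the 2 livers standing apart, 4 members were again called at 24 and at 28 months, against 48% and 62% of all genes in that refit.

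**Figure D1:**
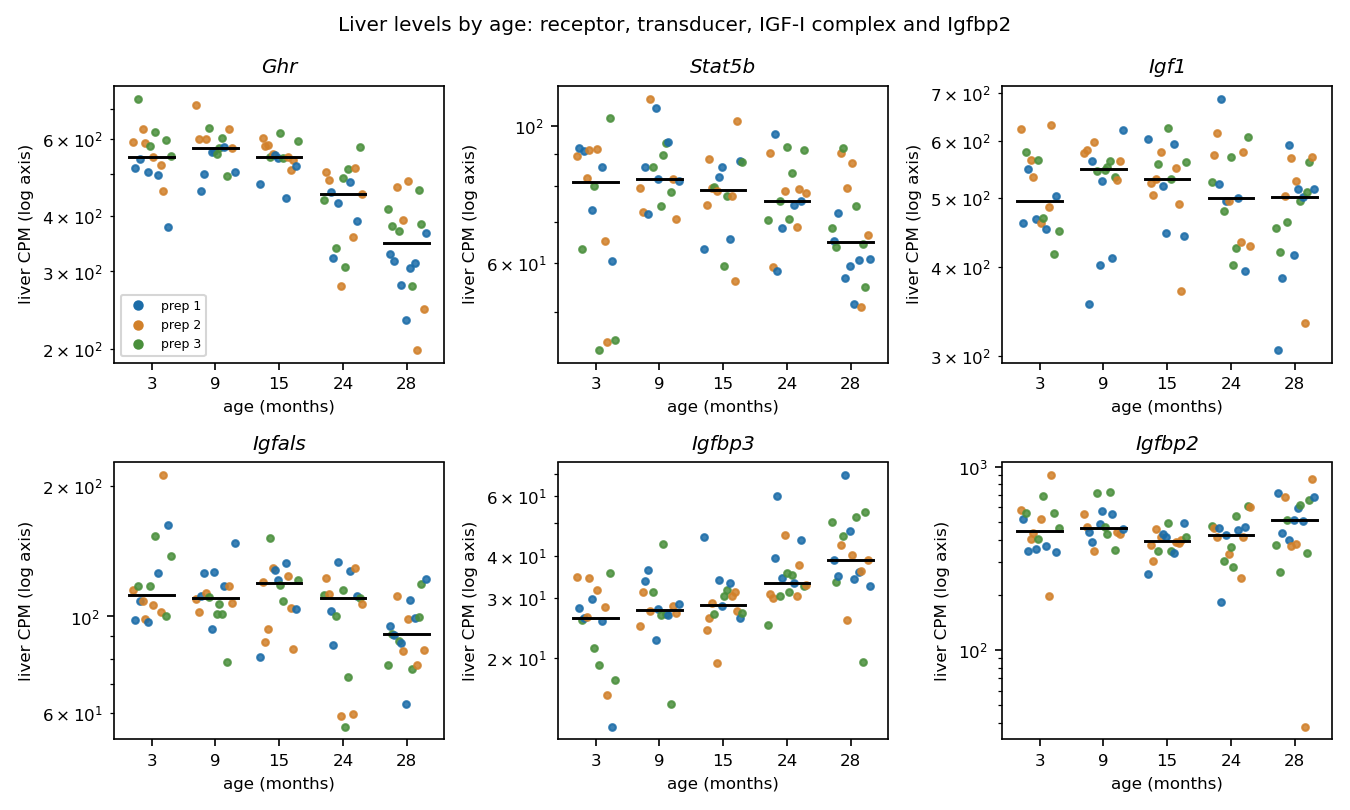
Liver CPM on a log axis against age in months for Ghr, Stat5b, Igf1, Igfals, Igfbp3 and Igfbp2, with 1 point per liver coloured by prep and a black line at the median of each age. Between 3 and 28 months the median of Ghr went from 547 to 347 CPM and that of Igfbp3 from 26.3 to 39.0 CPM, while the medians of Igf1 were 494 and 501 CPM.

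Ghr, the gene of the growth hormone receptor, lies on the minus strand of chromosome 15 (ENSMUSG00000055737, chr15:3317760-3583492, GRCm38.p6). In the 16 livers of 3 months it ranged from 379 to 741 CPM with a median of 547 CPM, and in the 18 livers of 28 months from 199 to 481 CPM with a median of 347 CPM. All 18 of the oldest livers lay below the median at 3 months and 11 of 18 lay below the lowest liver of that age, although the ranges overlapped. The medians of 9 and 15 months were 572 and 546 CPM, close to that at 3 months, and the median at 24 months was 450 CPM. The log2 fold change from 3 months was -0.36 ± 0.08 at 24 months (edgeR adjusted p = 0.000153) and -0.67 ± 0.08 at 28 months (edgeR adjusted p = 4.07e-11), so that the level at 28 months was 62.9% of that at 3 months with a 95% interval of the fold from 0.564 to 0.701. From 15 to 24 months it fell by 0.35 ± 0.08 and from 24 to 28 months it fell by 0.31 ± 0.08 on the log2 scale, with edgeR adjusted p-values of 0.000535 and 0.00343. No prep fitted alone called the fall from 15 to 24 months. The call from 24 to 28 months held in prep 1 alone and was lost in preps 2 and 3. It was also lost with only these 2 ages fitted and with a score of clock genes as a covariate. Each prep fitted alone gave a fall from 3 to 28 months that passed the test, by 0.69, 0.63 and 0.70 on the log2 scale in preps 1, 2 and 3, while at 24 months prep 3 alone called it. The standard deviation (SD) of log2 CPM between livers of one age was 0.22, 0.16, 0.13, 0.30 and 0.36 at 3, 9, 15, 24 and 28 months, lowest at 15 and highest at 28 months, a description with no test. The lowest Ghr of all was that of 28 months replicate 14, the liver with the low hepatocyte markers.

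Stat5b (ENSMUSG00000020919, chr11:100780731-100850724, minus strand) encodes the transcription factor that carries the receptor's signal to the nucleus. Its median was 81.2 CPM at 3 months, with livers from 43.3 to 103 CPM, and 64.8 CPM at 28 months, with livers from 50.9 to 92.1 CPM. The older range lay inside the younger one, with 3 livers of 3 months the lowest of all, and 15 of 18 livers of 28 months lay below the median at 3 months. From 3 to 28 months the log2 fold change was -0.15 ± 0.09, with an edgeR adjusted p of 0.163, and the call over all ages stands beside values at 9, 15 and 24 months of 0.18, 0.05 and 0.04 relative to 3 months. Voom and prep 1 fitted alone called Stat5b lower at 28 months, so that its call depended on the tool and the prep. Between 3 and 28 months its mean went from 80.5 to 60.9 CPM in prep 1. It went from 77.5 to 74.9 CPM in prep 2 and from 66.8 to 69.6 CPM in prep 3. The call over all ages was lost with a score of clock genes as a covariate and in preps 2 and 3 alone.

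Igf1 (ENSMUSG00000020053, chr10:87858265-87937042, plus strand) encodes the main hormone product of the axis. Livers ranged from 417 to 633 CPM at 3 months with a median of 494 CPM, and from 306 to 592 CPM at 28 months with a median of 501 CPM. The groups overlapped, with 7 of 18 old livers below the median at 3 months, 4 of them below the lowest young liver, and 11 above that median. From 3 to 28 months the log2 difference was -0.09 ± 0.08 (edgeR adjusted p = 0.302), with a 95% interval of the fold from 0.849 to 1.04. A fall as large as that of Ghr lies outside this interval, but the difference between the changes of Ghr and Igf1 was not tested. At the other ages the medians were 549, 531 and 499 CPM at 9, 15 and 24 months.

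Igfals, on chromosome 17 (ENSMUSG00000046070, chr17:24865997-24882010, plus strand, GRCm38.p6), encodes the acid-labile subunit of the circulating IGF complex. It ranged from 97.2 to 211 CPM at 3 months with a median of 112 CPM, and from 63.0 to 122 CPM at 28 months with a median of 90.9 CPM. The ranges overlapped, and 11 of 18 old livers lay below the lowest young liver. Relative to 3 months the log2 fold change was -0.28 ± 0.10 at 24 months (edgeR adjusted p = 0.0165) and -0.41 ± 0.10 at 28 months (edgeR adjusted p = 0.000283). The call at 24 months was lost without 3 months replicate 13, where the log2 fold change was -0.20 and the edgeR adjusted p 0.077, and by voom with quality weights, where it was -0.06 (adjusted p = 0.586). At 28 months voom gave -0.22 (adjusted p = 0.0287), and the preps fitted alone gave -0.33, -0.44 and -0.45, called in prep 3 only.

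Igfbp3 (ENSMUSG00000020427, chr11:7206086-7213923, minus strand) encodes the binding protein of the same complex, which in liver is made mainly by cells other than hepatocytes. It ranged from 12.5 to 35.6 CPM at 3 months with a median of 26.3 CPM, and from 19.4 to 69.4 CPM at 28 months with a median of 39.0 CPM. In 12 of 18 old livers it lay above the highest young liver, and 2 of 18 lay below the young median. Its log2 fold change was 0.47 ± 0.12 at 24 months (edgeR adjusted p = 0.000832) and 0.65 ± 0.12 at 28 months (edgeR adjusted p = 3.33e-06), a 1.57-fold level. In prep 2 alone it was 0.38 at 28 months and was not called (edgeR adjusted p = 0.1004). Markers of other cell types rose in the same livers. Of 6 stellate cell markers 5 were called higher at 28 months, against 31.9% of all genes. Their summed level went from 248 to 325 CPM at 3 months to 357 to 536 CPM at 28 months. All 5 Kupffer cell markers were called higher, against the same 31.9%, with summed medians of 312 and 794 CPM. Of 5 sinusoidal endothelium markers 2 were called lower and none higher by edgeR, where 30.0% of all genes were called lower. The part of these cell types in the rise of Igfbp3 was not tested.

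Igfbp2 (ENSMUSG00000039323, chr1:72824503-72852474, plus strand), another circulating IGF carrier, was the most abundant of the 10 genes per length of exon at every age, with a median level of 241 CPM per kilobase at 3 months and 275 CPM per kilobase at 28 months. Its livers ranged from 198 to 898 CPM at 3 months and from 38.3 to 854 CPM at 28 months, around medians of 446 and 509 CPM. The lowest value was again that of 28 months replicate 14. The log2 fold change from 3 to 28 months was 0.06 ± 0.17 (edgeR adjusted p = 0.776), and 0.14 ± 0.14 without the livers standing apart. On the same scale of median CPM per kilobase, Ghr had rank 2 at 3 months with 60.4 and rank 4 at 28 months with 38.4, and Igf1 had rank 3 with 49.9 and rank 2 with 50.6. At 3 months the liver ranges per kilobase of Ghr and Igf1 overlapped, as did those of Igfals and Igfbp1 below them.

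**Figure D2:**
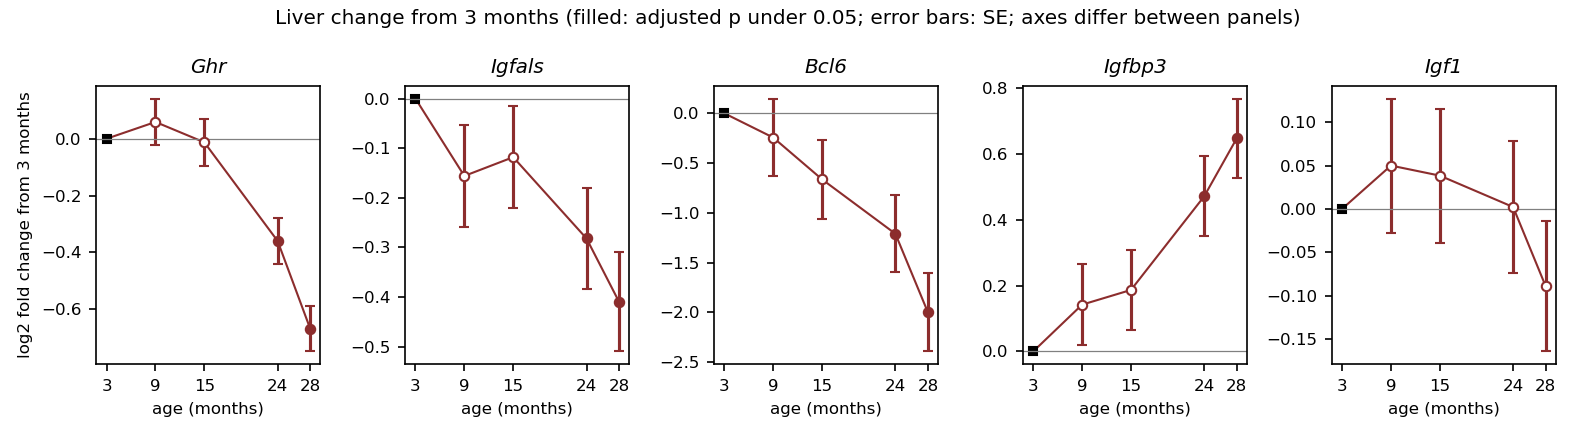
Log2 fold change from 3 months in the liver (vertical axes, which differ between panels) against age in months for Ghr, Igfals, Bcl6, Igfbp3 and Igf1, with SE as error bars and filled points where the adjusted p was under 0.05. The filled points are those of 24 and 28 months for the first 4 genes, and Igf1 stayed within 0.09 of 0 on the log2 scale at every age.

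Bcl6, on the minus strand of chromosome 16 (ENSMUSG00000022508, chr16:23965052-23988852, GRCm38.p6), encodes a zinc finger repressor. Its change from 3 to 28 months had the greatest magnitude among the 10 genes, along with a wide spread between livers of one age. At 3 months it ranged from 9.92 to 119 CPM with a median of 92.8 CPM, and at 28 months from 6.25 to 65.1 CPM with a median of 10.7 CPM. All 18 old livers lay below the young median and 9 of 18 lay below the lowest young liver. The medians at 9, 15 and 24 months were 50.4, 38.0 and 28.4 CPM. The log2 fold change from 3 months was -1.21 ± 0.39 at 24 months (edgeR adjusted p = 0.00743) and -2.00 ± 0.39 at 28 months (edgeR adjusted p = 9.31e-06), a level 25.0% of that at 3 months with a 95% interval of the fold from 0.147 to 0.426.

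The size of that fall differed between preps. Fitted alone, prep 1 gave -3.00 ± 0.58 and prep 3 gave -2.20 ± 0.75, both called by edgeR, while prep 2 gave -0.84 ± 0.62 with an edgeR adjusted p of 0.353. In prep 2 the 3-month livers averaged 50.5 ± 39.1 CPM (SD, n = 6), against 82.3 ± 41.0 CPM (SD, n = 5) in prep 1 and 80.7 ± 49.1 CPM (SD, n = 5) in prep 3. With a score of clock genes as a covariate, the log2 fold change was -1.46 ± 0.44 (edgeR adjusted p = 0.00424). That score, the mean of signed z-scores of 15 circadian genes, had a median of -0.598 at 3 months and 0.792 at 28 months in the liver, and its part in the fall was not tested beyond this fit. Exons of Bcl6 overlap another gene on the opposite strand by 21 bases, and whether the counting used the strand is not given in the sources used here.

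The letters of the STAT consensus, TTCNNNGAA, were searched on both strands in the 250 bases before the start sites of RefSeq transcripts (GRCm38.p6), a palindromic pattern that reads alike on both strands. Of 32851 windows 7.02% held it, and 9 windows held it 3 times or more. Counted by gene, 8.13% of 27025 genes held it in at least 1 window. Of the 10 members 9 had a window, 15 in all, while Socs2 had none and was not searched. Among these 9, 2 genes held the pattern, Bcl6 and Igfals, in 4 windows. The only windows of Igf1 and Cish lay wholly in exons of the gene itself, so the search covered no bases outside their exons. Both stand among the genes called in the liver, and stretches that hold the pattern are shown for that reason, 3 of the 4, 5′ to 3′ on the strand of the gene, with the matching letters in capitals. Bcl6 has 2 start sites there, with windows at chr16:23988853-23989102 and chr16:23981284-23981533, and the second held 3 matches. The Igfals stretch is chr17:24878111-24878214 on the plus strand. A further Igfals window, with 188 of its 250 bases in exons of the gene, also held 1 match and is not shown. None of the bases shown lay in exons of the gene itself in the GENCODE M21 annotation.
Bcl6 first start site: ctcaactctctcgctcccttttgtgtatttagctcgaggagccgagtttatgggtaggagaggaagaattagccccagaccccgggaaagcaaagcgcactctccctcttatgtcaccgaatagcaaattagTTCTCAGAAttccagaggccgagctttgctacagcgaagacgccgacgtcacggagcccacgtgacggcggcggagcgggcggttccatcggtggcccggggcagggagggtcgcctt
Bcl6 second start site: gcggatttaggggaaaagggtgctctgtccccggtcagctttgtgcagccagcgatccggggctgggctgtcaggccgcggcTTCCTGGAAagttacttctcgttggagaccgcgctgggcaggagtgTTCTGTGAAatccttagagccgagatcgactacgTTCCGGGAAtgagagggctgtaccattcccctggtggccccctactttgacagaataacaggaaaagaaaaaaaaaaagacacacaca
Igfals: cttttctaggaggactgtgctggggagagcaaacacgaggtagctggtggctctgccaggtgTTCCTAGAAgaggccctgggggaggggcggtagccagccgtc
A match is a description of the sequence and does not show that a factor binds there.

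The feedback inhibitors Socs2 (ENSMUSG00000020027, chr10:95385362-95417180, minus strand) and Cish (ENSMUSG00000032578, chr9:107296026-107302784, plus strand) varied widely between livers of the same age and did not pass the test at 28 months. Socs2 ranged from 6.72 to 73.1 CPM at 3 months with a median of 19.2 CPM, and from 13.8 to 60.4 CPM at 28 months with a median of 28.9 CPM. Cish ranged from 2.39 to 45.9 CPM at 3 months with a median of 8.72 CPM, and from 5.58 to 43.4 CPM at 28 months with a median of 18.8 CPM. For each of them, no old liver lay outside the young range and 15 of 18 lay above the young median. The log2 fold changes were 0.41 ± 0.30 for Socs2 and 0.52 ± 0.46 for Cish, with edgeR adjusted p-values of 0.234 and 0.328. The SD of log2 CPM went from 0.93 at 3 months to 0.64 at 28 months for Socs2 and from 1.41 to 0.93 for Cish, with no test of the spread.

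The highest median of Cish was at 15 months, 36.9 CPM, in livers that ranged from 2.32 to 98.5 CPM. This gave a log2 fold change of 1.31 ± 0.47 from 3 months with an adjusted p of 0.0676 by edgeR and 0.0487 by DESeq2, so that its call depended on the tool. Exons of Cish overlap 2 genes on the opposite strand, by 261 and 479 bases, and reads of these may be included.

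Igfbp1 (ENSMUSG00000020429, chr11:7197782-7202546, plus strand), the binding protein of fasting and insulin, had the greatest range of the 10 genes in the young livers. It ranged from 3.47 to 265 CPM at 3 months, a 76.4-fold span, with a median of 43.9 CPM, and from 10.0 to 321 CPM at 28 months with a median of 59.3 CPM. The span was 5.35-fold at 9 months, from 19.0 to 101 CPM. Its log2 fold change was 0.35 ± 0.44 at 28 months (edgeR adjusted p = 0.498) and 0.89 ± 0.44 at 24 months (edgeR adjusted p = 0.0849), where single livers reached 445 CPM. The call at 24 months appeared when 3 months replicate 2 or 3 months replicate 6 was left out, with edgeR adjusted p-values of 0.0446 and 0.0281. Without 24 months replicate 5 the log2 fold change there was 0.56 (edgeR adjusted p = 0.272), and without 28 months replicate 6 that at 28 months was 0.15 (edgeR adjusted p = 0.777).

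The insulin response element of Igfbp1 is a textbook regulatory sequence bound by FOXO factors. Its core letters, CAAAACAA, searched on both strands of the same windows, were present in 2.21% of windows and 2.54% of genes. Of the 9 members with a window 1 held them, Igfbp1. The stretch of its window that holds them is shown because the gene's spread between livers is the widest among the 10 at 3 months. It is chr11:7197662-7197781 on the plus strand (GRCm38.p6, RefSeq), 5′ to 3′, with the match in capitals.
Igfbp1: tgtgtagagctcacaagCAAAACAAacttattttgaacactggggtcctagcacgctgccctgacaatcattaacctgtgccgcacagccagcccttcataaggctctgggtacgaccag
The forkhead letters GTAAACA, searched likewise, were in 3.17% of windows, in 3.54% of genes and in 1 of these 9 members, Igfals.

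**Figure D3:**
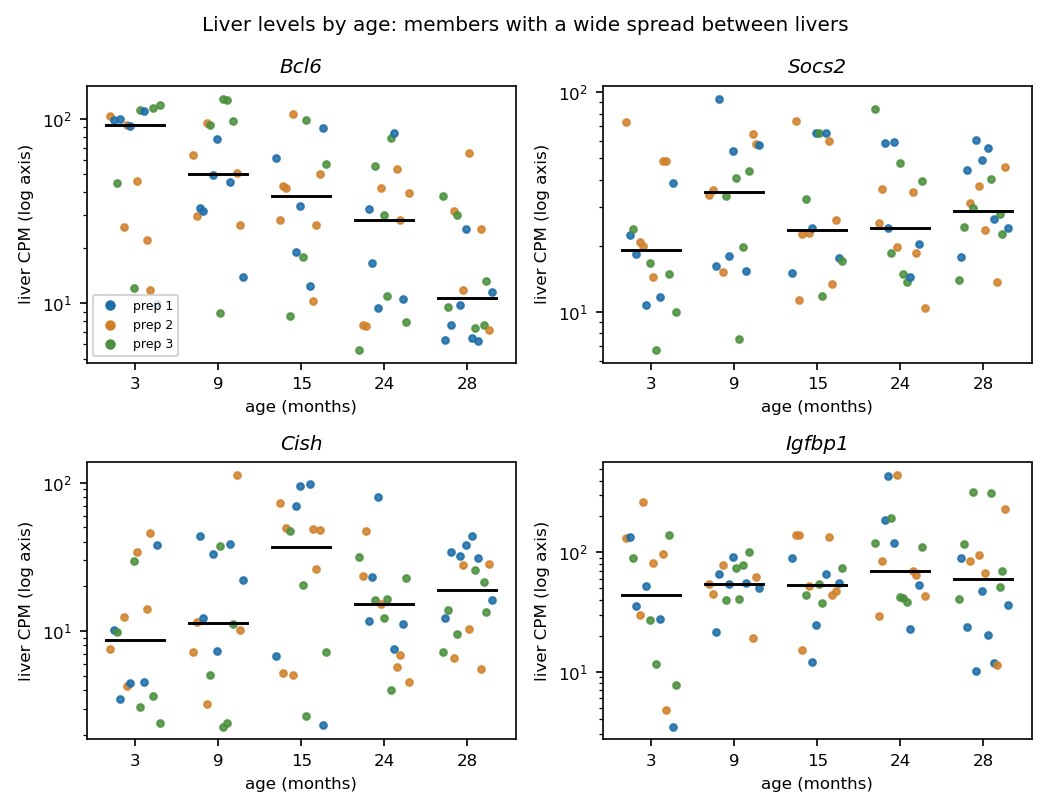
Liver CPM on a log axis against age in months for Bcl6, Socs2, Cish and Igfbp1, with 1 point per liver coloured by prep and a black line at the median of each age. The median of Bcl6 was lower at each later age, with 92.8 CPM in the youngest and 10.7 CPM in the oldest livers, and the ranges of all 4 genes overlapped between these 2 ages.

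Across the 83 livers, the members were then related to each other after the means of age and prep had been removed from log2 CPM. Of 10 pairs tested, 6 passed an adjusted p of 0.05 by 100000 permutations of the livers within age. Bcl6 and Cish had r = -0.72 and rho = -0.73, each with an adjusted permutation p of 3.33e-05 from a raw p of 1e-05, the smallest these permutations can give. Bcl6 and Socs2 had r = -0.49 and rho = -0.50 (adjusted permutation p = 3.33e-05 for each), and Socs2 and Cish had r = 0.55 and rho = 0.55 (adjusted permutation p = 3.33e-05 for each). Livers high in Bcl6 for their age and prep were low in both feedback inhibitors. The relation of Bcl6 and Cish had the same sign in 5 of 5 ages, with r between -0.89 and -0.58, and r was -0.67, -0.64 and -0.89 within preps 1, 2 and 3. Without the 2 livers farthest from the median of Bcl6, r was -0.70.

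**Figure D4:**
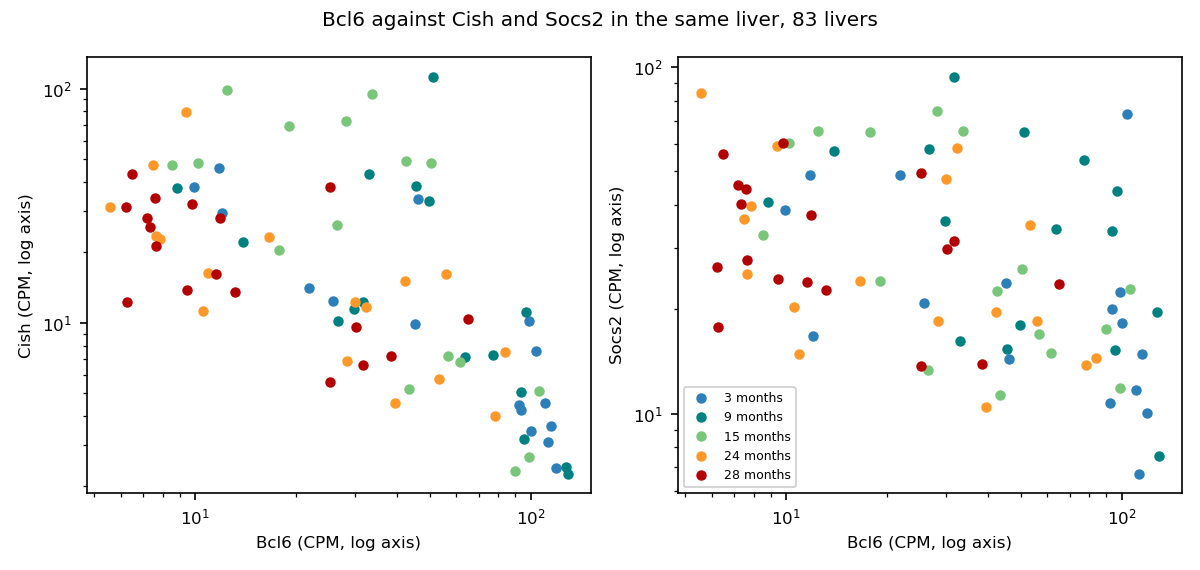
Bcl6 CPM (horizontal log axis) against Cish CPM (left) and Socs2 CPM (right, both vertical log axes) in the same liver, with 1 point for each of 83 livers coloured by age in months. Cish was low where Bcl6 was high, with r = -0.72 after age and prep means were removed, and the points for Socs2 were more scattered, with r = -0.49.

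Ghr was related to Igfals with r = 0.39 and rho = 0.34 (adjusted permutation p = 0.00166 and 0.00433) and to Stat5b with r = 0.35 and rho = 0.35 (adjusted permutation p = 0.00166 and 0.00168). Within preps the values for Igfals were 0.30, 0.41 and 0.44, and those for Stat5b were 0.52, 0.47 and 0.07. By age, Ghr and Igfals ran from r = -0.54 to r = 0.76, with the same sign in 4 of 5 ages, and without the 2 farthest livers r was 0.33. The relation of Ghr and Stat5b was 0.33 without the 2 farthest livers and had the same sign in 5 of 5 ages. Igf1 and Igfals, both known STAT5 targets, had r = 0.36 and rho = 0.38 (adjusted permutation p = 0.0017 and 0.0016), with r of 0.11, 0.53 and 0.53 within preps and 0.38 without the 2 farthest livers. Ghr and Igf1 did not pass, with r = 0.21 and rho = 0.16 (adjusted permutation p = 0.128 and 0.237), and r within preps was -0.16, 0.42 and 0.37. The remaining pairs, Igf1 with Igfbp3 and with Igfbp1 and Igfbp1 with Igfbp2, had r of 0.11, 0.11 and 0.05 and did not pass.

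Among the 12757 genes that averaged 1 CPM or more, those most like each member over the 83 livers were named by Pearson's r after the same correction, as a description with no p. These values share the libraries' depth and makeup. For Ghr they were Akr1c6, an aldo-keto reductase gene (r = 0.83), and Cat, the catalase gene (r = 0.82). For Cish they were Phlda1 (r = 0.82) and Foxa2, a forkhead factor of hepatocytes (r = 0.81), and for Igfbp1 they were Ip6k2 (r = 0.81) and Irf2bp2 (r = 0.77). For Igfbp2 they were Car8 and Mpc2 (r = 0.77 each), for Stat5b Khnyn (r = 0.78) and Gm34654 (r = 0.77), and for Igfals Acbd4 (r = 0.73) and Hagh (r = 0.71). The closest genes to Igf1 were Ergic2 (r = 0.69) and Dcun1d1 (r = 0.64), those to Socs2 were Slc25a30 (r = 0.66) and Rrn3 (r = 0.59), and those to Igfbp3 were Fhl1 (r = 0.61) and Colec11, which is among the stellate cell markers (r = 0.58). Bcl6 had no close companion, with Atxn1 at r = 0.50 and Arhgef3 at r = 0.47. In the opposite direction, chosen after the values were seen, Bcl6 had the most negative r with Cish, and Cish and Socs2 had theirs with Bcl6.

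Other genes of the pathway were read from lists of named genes. Of 23 genes of growth hormone receptor signalling in the liver, 12 rose and 7 fell between 3 and 28 months, where 31.9% of all genes rose and 30.0% fell. The list's median log2 fold change was 0.28, beside 0.01 over all genes. The inhibitor genes Socs3 and Socs1 rose, by 2.02 ± 0.35 and 1.29 ± 0.33 on the log2 scale, with mean levels of 9.04 ± 4.97 CPM (SD, n = 16) and 36.3 ± 37.1 CPM (SD, n = 18) for Socs3 and of 0.614 and 1.46 CPM for Socs1. Ptpn1, a phosphatase gene that acts on JAK2, rose by 0.94 ± 0.16, and Prlr, the prolactin receptor gene, rose by 0.99 ± 0.12. The adjusted p-values by edgeR were 7.12e-07, 0.000466, 8.36e-07 and 8.9e-11 for Socs3, Socs1, Ptpn1 and Prlr. Of the 19 other IGF system genes 11 were tested in the liver, and 6 rose and 0 fell. They included the protease genes Mmp9 (2.07 ± 0.26) and Htra1 (0.66 ± 0.24), the receptor gene Igf1r (0.58 ± 0.12) and Igfbp5 (0.30 ± 0.13). Over the 11 genes the median log2 fold change was 0.24. In the same livers all 5 Kupffer cell, all 5 B lineage and all 5 T lineage markers and 13 of 16 acute phase genes were called higher, and the part of these cells in the rises of Socs3, Socs1, Ptpn1 and Mmp9 was not tested.

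The liver-specific pattern that growth hormone pulses maintain in males was read from 11 regulators of sex-biased genes. Between 3 and 28 months 5 of them rose and 5 fell, where 31.9% of all genes rose and 30.0% fell. Cux2, known as a female-biased factor in liver, averaged 0.45 ± 0.118 CPM (SD, n = 16) at 3 months and 36.0 ± 33.0 CPM (SD, n = 18) at 28 months, a log2 fold change of 6.18 ± 0.57 (edgeR adjusted p = 2.73e-15). Trim24 rose by 1.72 ± 0.17 and Tox, which is also female-biased, rose by 1.24 ± 0.13, while Onecut1, the gene of hepatocyte nuclear factor 6, fell by 1.56 ± 0.42 on the log2 scale. Onecut1 averaged 17.0 ± 22.7 CPM (SD, n = 16) at 3 months, an SD above the mean, and 5.94 ± 3.45 CPM (SD, n = 18) at 28 months. The median over the list was -0.23.

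Of 18 genes that respond to fasting and insulin, 5 rose and 6 fell in the liver, with a median log2 fold change of -0.04. Among those named by size, the log2 fold changes were -1.93 ± 0.44 for the hormone gene Fgf21, -1.29 ± 0.29 for glucose-6-phosphatase, G6pc, and -1.27 ± 0.29 for Angptl4. Pck1, another gene of glucose production that rose, stood at 0.90 with an edgeR adjusted p of 0.0102. Of 15 clock genes 8 rose and 4 fell, and 13 of 16 acute phase genes rose. Among the clock genes Ciart and Per3 rose by 4.03 ± 0.57 and 3.57 ± 0.42, followed by Dbp (2.91 ± 0.71) and Per1 (1.96 ± 0.37). For Ciart and Dbp the SD of CPM exceeded the mean at both ages. Among the acute phase genes Orm3 and Lcn2 rose by 4.85 ± 0.50 and 4.06 ± 0.74, followed by Orm2 (3.46 ± 0.69) and Saa2 (2.26 ± 0.96). Orm genes share near-identical sequence, so that their counts are uncertain. At 3 months the SD exceeded the mean for each of these acute phase genes, and for Orm2 and Saa2 also at 28 months. Saa2 averaged 166 ± 418 CPM (SD, n = 16) at 3 months and 621 ± 2051 CPM (SD, n = 18) at 28 months. The part of the clock and acute phase genes in the changes of the members was not tested. Of the 6 hepatocyte markers 2 were called lower, against 30.0% of all genes. The clock score had r between -0.36, for Stat5b, and 0.20, for Igf1, with the members over the 83 livers after age and prep means were removed, as a description.

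In the brain 1 of the 8 members tested was called at 28 months, Bcl6, which was lower, against 28.3% of all genes. None was called at 9 months (0.315% of all genes), 15 months (0.871%) or 24 months (10.1%) against 3 months, at 15 against 9 months (0.00%), at 24 against 15 months (0.732%) or at 28 against 24 months (1.09%). At an unadjusted p under 0.05, edgeR gave 1, 1, 1, 1, 0 and 0 of 8 genes in these 6 comparisons, DESeq2 called 0 in each, and voom called 1 at 15 and 1 at 24 months, Bcl6 in both, where it called 702 and 4844 of 18711 genes. Over all genes, edgeR gave 1399, 1452, 4359, 532, 1631 and 2326 at an unadjusted p in the 6 comparisons. At 15 against 9 months all genes gave 0 calls by edgeR, 1 by DESeq2 and 24 by voom. Over all ages together Bcl6 was the 1 member called, against 20.6% of all genes. Without the brains standing apart, Bcl6 was called at 24 months too, where 17.1% of all genes were, and 1 member was called at 28 months, against 34.1% of all genes.

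Brain Bcl6 ranged from 49.2 to 64.2 CPM at 3 months with a median of 56.7 CPM and from 42.7 to 58.8 CPM at 28 months with a median of 50.7 CPM. The ranges overlapped over most of their width. The log2 fold change was -0.17 ± 0.05 (edgeR adjusted p = 0.00657), and the spread between brains was narrow, with an SD of log2 CPM of 0.11 at 3 months against 1.33 in the liver. No prep fitted alone called it, with values of -0.25, -0.04 and -0.21 and edgeR adjusted p-values of 0.051, 0.927 and 0.172, and with the clock score as covariate the adjusted p was 0.0574.

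Ghr in the brain had medians of 9.78 CPM at 3 months and 10.6 CPM at 28 months, with ranges from 8.14 to 11.9 and from 7.01 to 13.6 CPM. The change was 0.10 ± 0.06 (edgeR adjusted p = 0.231). Igf1 had medians of 10.9 CPM at both ages, with one brain, 28 months replicate 15, at 36.4 CPM, and that brain also had the lowest Stat5b, 4.59 CPM, and the lowest Cish, 0.689 CPM, of its age. Socs2 had medians of 26.2 and 25.5 CPM and Igfbp3 of 17.1 and 15.6 CPM.

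Igfbp2 in the brain varied more, from 11.6 to 121 CPM at 3 months and from 10.6 to 91.7 CPM at 28 months, with medians of 19.6 and 15.6 CPM. The summed choroid plexus markers ran from 46.7 to 6419 CPM in the same 3-month brains and from 45.4 to 5302 CPM at 28 months. From 3 to 28 months its log2 fold change was -0.20 ± 0.27 (edgeR adjusted p = 0.611), and it was -0.42 without 28 months replicate 15 and 0.08 without 3 months replicate 5. Igfbp2 was called lower at 28 months in prep 1 alone (-0.81 ± 0.22, edgeR adjusted p = 0.0169), and stood at -0.75 and 0.84 in preps 2 and 3, neither called. The part of the choroid plexus in these values was not tested. Igfals and Igfbp1 were near the floor in the brain, with highest values of 0.306 and 0.312 CPM.

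Of 13 genes of ligands and hypothalamic regulators 8 were tested in the brain, and 3 were called lower, Gh among them, and 0 higher by edgeR, where 28.3% of all genes were called. Gh, the growth hormone gene, averaged 44.0 ± 132 CPM (SD, n = 15) at 3 months and 0.38 ± 0.903 CPM (SD, n = 18) at 28 months, a log2 fold change of -6.13 ± 1.61 (edgeR adjusted p = 0.00252). The SD exceeded the mean at both ages. The summed level of the 5 pituitary markers, which include Gh, reached 656 CPM in 3 months replicate 5, against a median of 1.18 CPM at that age. That library alone held 495 CPM of Gh and also had the highest summed choroid plexus markers of all brains. Without it, the log2 fold change was -4.17 ± 1.53 (edgeR adjusted p = 0.0337), and 3 months replicate 1 held 162 CPM, while the next of that age held 1.33 CPM. Without both, Gh averaged 0.157 ± 0.376 CPM (SD, n = 13) at 3 months and the value was 2.30 ± 1.48 (edgeR adjusted p = 0.248), so the fall rests on these 2 brains. Both refits were chosen after the values were seen. The part of pituitary tissue in these values was not tested. Sstr4, a somatostatin receptor gene, fell by 0.56 ± 0.18 on the log2 scale. Against the same 28.3%, 4 of 23 receptor signalling genes rose and 4 fell in the brain, with Socs3 at 0.59 ± 0.16 and Ptpn6 at 0.42 ± 0.07, and of 16 IGF system genes tested 1 rose and 4 fell, with Stc1 at -0.58 ± 0.13 and Igf2bp2 at -0.49 ± 0.14.

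The change from 3 to 28 months differed between the tissues for 3 of the 8 members tested in both, against 49.2% of 14035 genes. The liver change minus the brain change was -0.73 ± 0.10 for Ghr, -1.79 ± 0.40 for Bcl6 and 0.71 ± 0.18 for Igfbp3, with adjusted p-values of 1.65e-09, 6.73e-05 and 0.000526 from the tissue by age interaction in edgeR. For the other 5 the differences were -0.0029 ± 0.13 (Stat5b), -0.16 ± 0.11 (Igf1), 0.41 ± 0.31 (Socs2), 0.73 ± 0.49 (Cish) and 0.30 ± 0.32 (Igfbp2), none called. With each mouse as a block, which pairs its 2 tissues, the same 3 were called by voom, at -0.75, -1.60 and 0.79. Fitted alone, prep 1 called 5 members, and preps 2 and 3 called 1 each, Ghr in both, while 3825, 891 and 4407 of the 14035 genes were called in preps 1, 2 and 3.

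**Figure D5:**
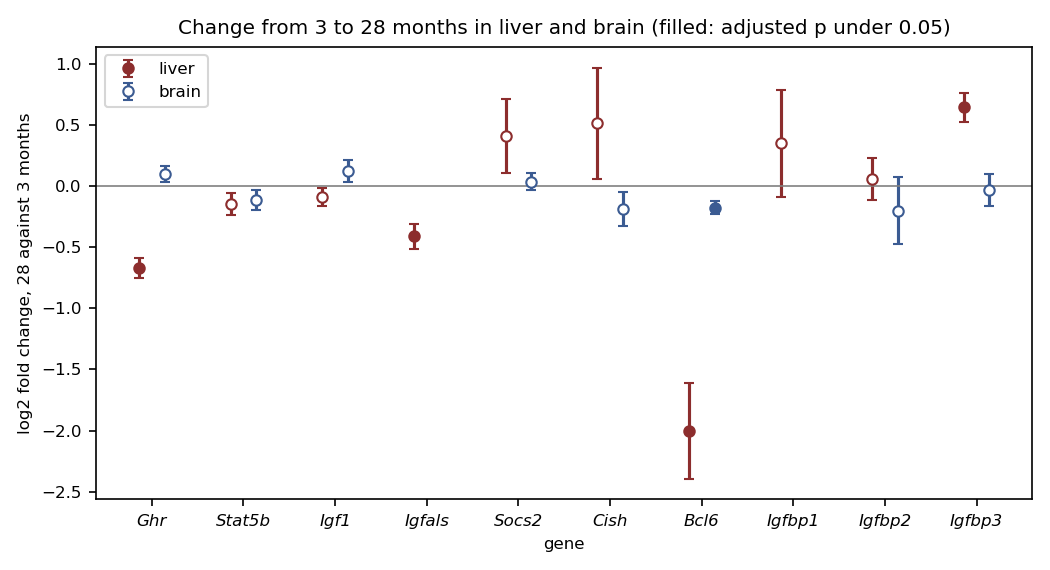
Log2 fold change from 3 to 28 months (vertical axis) for each of the 10 genes in liver and brain, with SE as error bars and filled points where the adjusted p was under 0.05. The liver points of Ghr (-0.67), Igfals (-0.41), Bcl6 (-2.00) and Igfbp3 (0.65) are filled, and in the brain that of Bcl6 (-0.17) is, with Igfals and Igfbp1 not tested there.

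A mouse's brain and liver were also related gene by gene after age and prep means were removed, over 82 mice. None of 8 members passed, with the lowest adjusted permutation p at 0.461, for Igfbp2. At an unadjusted permutation p under 0.05 there was none by Pearson's r, and by Spearman's rho there was Igfbp2, with rho = -0.28 (raw permutation p = 0.0158).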

How the data were processed

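The authors deposited 1 table of whole-number counts per tissue, raw and not normalized, with 55471 Ensembl identifiers and 1 column per library. The submitters' processing notes name cutadapt 2.8, HISAT2 2.1.0, SAMtools 1.9 and featureCounts of Subread 2.0.1, with the builds GRCm38.p6 and mm10, and the labels' protocols name a stranded kit. The strand setting of the counting is not given in the sources used here. Symbols matched 55144 identifiers.

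Counts were fitted with edgeR 4.0.16 (limma 3.58.1, R 4.3.3) after filterByExpr by age and TMM scaling, with age and prep as terms over all libraries of a tissue, and tested two-sided with Benjamini-Hochberg adjustment within each comparison over all genes kept. SE is the log2 fold change over the square root of F. Medians, ranges and SDs are of CPM, and log2 CPM used a prior count of 2. Levels per kilobase used merged exon lengths of GENCODE M21. Relations between members used residuals of log2 CPM and two-sided permutations within age. The script was tested on simulated counts with known changes. Alternatives were RLE size factors, DESeq2 1.42.0, voom with quality weights, no filter, no prep term, each prep, 2 ages at a time, a clock score, a replicate block and each library left out. Brain and liver of one mouse are paired by the labels, and their deviations had a median r of 0.0132 over genes (82 mice), against -0.0048 between different mice.

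All 10 members were named throughout. From each list, the 4 genes called in the liver with the largest absolute change from 3 to 28 months and a mean of at least 1 CPM were named (2 in the brain), and per member the 2 genes most like it. One gene that this rule names is not reported here. Other named genes were chosen after their values were seen. The members and lists were chosen with earlier results of these data known.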

Additional observations from a re-analysis of the deposited data

Results flagged for a closer look

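The change from 3 to 28 months differed between liver and brain for 3 of 8 members by the test of the difference itself, which called 49.2% of all genes. The liver change minus the brain change was -0.73 on the log2 scale for Ghr, where the liver gave -0.67 and the brain 0.10. For Bcl6 it was -1.79, from -2.00 in the liver and -0.17 in the brain. For Igfbp3 it was 0.71, from 0.65 and -0.03. The difference for Ghr was called in each of the 3 preps fitted alone, that for Bcl6 and that for Igfbp3 in prep 1 only. In preps 2 and 3 the difference for Bcl6 was -0.78 (adjusted p = 0.521) and -1.91 (adjusted p = 0.0521), and that for Igfbp3 was 0.51 (adjusted p = 0.361) and 0.71 (adjusted p = 0.0725), all by edgeR.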

How the results depend on the processing

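For the liver at 28 against 3 months, voom added Stat5b, and prep 1 alone called it in place of Igfals. The count of members called there was 4 in the fit reported, 1 in prep 2 alone and 4 or 5 under the other alternatives. At 24 against 3 months it was 4, with 1, 0 and 2 in preps 1, 2 and 3 alone and 3 with voom and with only the 2 ages compared, both without Igfals. Leaving out each of 83 livers gave 4 to 4 at 28 months and 3 to 5 at 24 months. At 15 against 3 months DESeq2 called 1 in place of 0. At 24 against 15 months the count of 1 became 2 with the replicate block, with only the 2 ages compared, with voom and with DESeq2, and 0 in each prep. At 28 against 24 months it became 0 with the clock score, with only the 2 ages compared and in preps 2 and 3, and 2 in prep 1. Over all ages it went from 5 to 1 in prep 2, 1 in prep 3 and 4 with voom and with the clock score. In the brain at 15 against 3 months, 0 became 1 with only the 2 ages compared and with voom. At 24 against 3 months 0 became 1 with the replicate block, with voom and without the 2 brains standing apart. At 28 against 3 months 1 became 2 with the clock score, Stat5b and Cish in place of Bcl6, and 0 in preps 2 and 3, and over all ages 0 with the clock score and in preps 2 and 3. Leaving out each of 82 brains gave 0 to 1 at 24 months and 1 to 2 at 28 months. Bcl6 was called at 24 months without 3 months replicate 1, without 24 months replicates 1, 3, 5 or 12 or without 28 months replicate 15, and Cish at 28 months without replicate 12 of that age. The tissue difference went from 3 members to 5, 1 and 1 in preps 1, 2 and 3. The cause was not tested, but each prep holds 4 to 7 libraries per age. Samples of different ages share only a number: same-numbered livers of 3 and 28 months had correlations over 0.1 in 3 of 16 pairs, and with the replicate block on that number Ghr stood at -0.67 and Bcl6 at -2.06 at 28 months. With the mouse as a replicate block, 3 members again differed between the tissues. No member value called in the fit reported changed sign, but some called in prep 1 alone did between preps, with the tissue difference of Igfbp2 at 1.30 and -0.98 and that of Stat5b at -0.48 and 0.42 in preps 1 and 3. In the brain Gh went from -6.13 to -4.17 without 3 months replicate 5 and to 2.30 without that brain and 3 months replicate 1. Dropping the 2 libraries standing apart was chosen after seeing the data. Igfals and Igfbp1 had too few counts to be tested in the brain.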
